A study of Homo sapiens with 13 samples.

Results

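The experiment described here set 1 RNA sequencing library of A549 cells with a knockout of the precursor of the microRNA miR-301a (CRISPRd_miR301a-#2) against 1 library of its control line (CRISPRd_Control). These are 2 of the 13 libraries of the series, which asks how the PRR11, SKA2, miR-301a and miR-454 unit of chromosome 17 acts on lung cancer cells and PI3K-AKT signalling. A549 is a human lung adenocarcinoma cell line. Levels are given as CPM, a gene's counts scaled to a common library total. The genes compared were chosen by read depth in this pair alone: 15051 of the 39710 genes of the table had at least 20 reads over both libraries and at least 1 CPM in either, and these are called measured. The labels give no repair outcome, guide or statement of whether the line is 1 clone. The same table holds LV-vector-34, the empty lentiviral control of the overexpression lines, which served as a second control. It also holds the knockout of the miR-454 precursor (CRISPRd_miR454-#1) and the libraries labelled LV-miR301a, LV-miR454 and LV-3+4, which carry lentiviral microRNA expression. All are A549 cells in the same medium. As labelled, LV-vector-34 differs from the knockout also in its construct, an empty lentiviral vector and not the CRISPRd system. The sample titles do not say how that system was delivered.

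A microRNA guides a silencing complex to messages whose 3′ untranslated region (3′ UTR) pairs with its seed, bases 2 to 8 of the mature strand, and such messages are repressed or degraded. miR-301a belongs to a family with miR-130 and miR-454 whose members share the seed and so can act on the same sites. The family is known for repressing brakes on growth and parts of the TGF-beta pathway. Loss of 1 member takes away a repressor, while members encoded elsewhere can still bind the shared sites. The mature strands of 4 members, from RefSeq on GRCh38.p14, are shown to make that overlap visible, 5′ to 3′ with the seed in capitals.

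hsa-miR-301a-3p: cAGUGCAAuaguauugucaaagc
hsa-miR-454-3p: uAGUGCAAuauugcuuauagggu
hsa-miR-301b-3p: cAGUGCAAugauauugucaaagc
hsa-miR-130b-3p: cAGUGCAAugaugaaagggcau

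All 4 carry the same 7 seed bases and differ in the rest of the strand. The knocked-out precursor is the hairpin of 86 bases at chr17:59151136-59151221, minus strand, given next with the mature 3p strand in capitals.

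MIR301A hairpin: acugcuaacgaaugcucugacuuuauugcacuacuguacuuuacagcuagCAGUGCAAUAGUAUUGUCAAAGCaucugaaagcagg

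The hairpin lies in an intron of SKA2 (chr17:59109951-59155269, minus strand), upstream of the miR-454 hairpin (chr17:59137758-59137872) in the direction of transcription. PRR11 (chr17:59155499-59204705, plus strand) starts beside SKA2 and runs the other way. MIR301A had 0 counts in CRISPRd_miR301a, 0 in CRISPRd_Control and 0 in LV-vector-34, so these poly(A) counts do not check the knockout. A count of 0 allows up to 0.162 CPM in the knockout and 0.152 in its control, taken at 3 counts. MIR454 was likewise at 0 in these 3 libraries. Reads of the MIR301A locus numbered 29 in the LV-miR301a library and 34 in LV-3+4, as labelled. For MIR454 the numbers were 28 and 0, which goes against both labels. The host gene SKA2, whose product helps attach spindle microtubules to kinetochores, was at 63.4 CPM in CRISPRd_Control, 62.8 in the knockout and 63.2 in LV-vector-34, which is 99.1% of its control (95% counting interval 91.5 to 107%). PRR11, a cell cycle protein, was at 132, 95.9 and 140 CPM, or 72.4% (68.1 to 76.9%) of CRISPRd_Control and 68.5% of LV-vector-34. PRR11 thus lay below both controls by more than counting error, and SKA2 did not. In CRISPRd_miR454 PRR11 was at 68.5% and SKA2 at 70% of CRISPRd_Control. The log2 ratio of PRR11 in the miR-301a knockout was -0.46. The median of all measured genes of chromosome 17 was -0.272, but that of the block of about 30 neighbouring genes around the unit was -0.07. Whether the value of PRR11 goes with the chromosome was not tested.

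Each group is 1 library, so there is no replicate check, each ratio compares libraries and not conditions, and no p-value can be given. To be called higher or lower, a gene needed a 2-fold difference in CPM with 0.5 added to both (a log2 ratio of 1 or more in size) and an exact 95% counting interval that excluded equality. Folds below are plain CPM ratios, with that interval in parentheses. These intervals hold counting error alone: amplified reads carry no molecular identifier and are not separate molecules. Totals ran from 18842334 to 19139651 counts over the 7 libraries of the table, so depth hardly differed. All 15 markers of A549 on the list used were measured in the pair. Of the 10 immune markers, CD3D, CD3E and MS4A1 had 0 counts in both libraries, and CD68, CD14 and PTPRC, which carries the CD45 antigen, were called higher. Their summed level was 50 CPM in CRISPRd_Control, 130 in the knockout, 69.3 in LV-vector-34 and 161 in CRISPRd_miR454. PTPRC had 1 count in the control, 75 in the knockout and 3 in LV-vector-34. The 10 fibroblast markers summed to 19.6 CPM in the control, 11.8 in the knockout and 36.8 in LV-vector-34, and the 8 endothelial markers to 1.01, 1.67 and 0.629. The part of these markers in the results was not tested.

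Over the whole pair, 1014 genes (6.74%) were called higher and 624 (4.15%) lower in the knockout, while 75.0% of the measured genes lay within 1.5-fold. Differences of 4-fold or more numbered 277 higher and 166 lower, and of 8-fold or more 86 and 49. The median log2 ratio of all measured genes was -0.01. At the edge of the rule, among genes at 5 CPM or more, ADAMTS10 (log2 1.000) was the last called higher and SYNGR3 (0.998) the nearest not called. On the other side SLFNL1 (-1.002) was the last called lower and OCLN (-0.994) the nearest not called. Against LV-vector-34 as the control, 783 (5.21%) were higher and 548 (3.65%) lower of 15030 measured. The controls differed from each other too: 646 of 14828 genes (4.36%) passed the same rule between CRISPRd_Control and LV-vector-34. Of the 1014 higher genes, 568 (56.0%) were called higher against both controls, and of the 624 lower genes 315 (50.5%). Both comparisons use the same knockout library, so the second is a check on the control and not a repeat of the knockout. Among the 446 higher genes not called against LV-vector-34, 169 were themselves called lower in CRISPRd_Control than in LV-vector-34. For the 309 such lower genes, 103 were called higher in CRISPRd_Control. A further comparison, added after seeing the data, set the knockout against all 5 libraries of the table without a knockout. It stood at least 2-fold above the highest of them for 374 genes (2.48%) and at least 2-fold below the lowest for 226 (1.5%). In the plot of leading genes, each gene is shown in all 7 libraries.

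**Figure D1:**
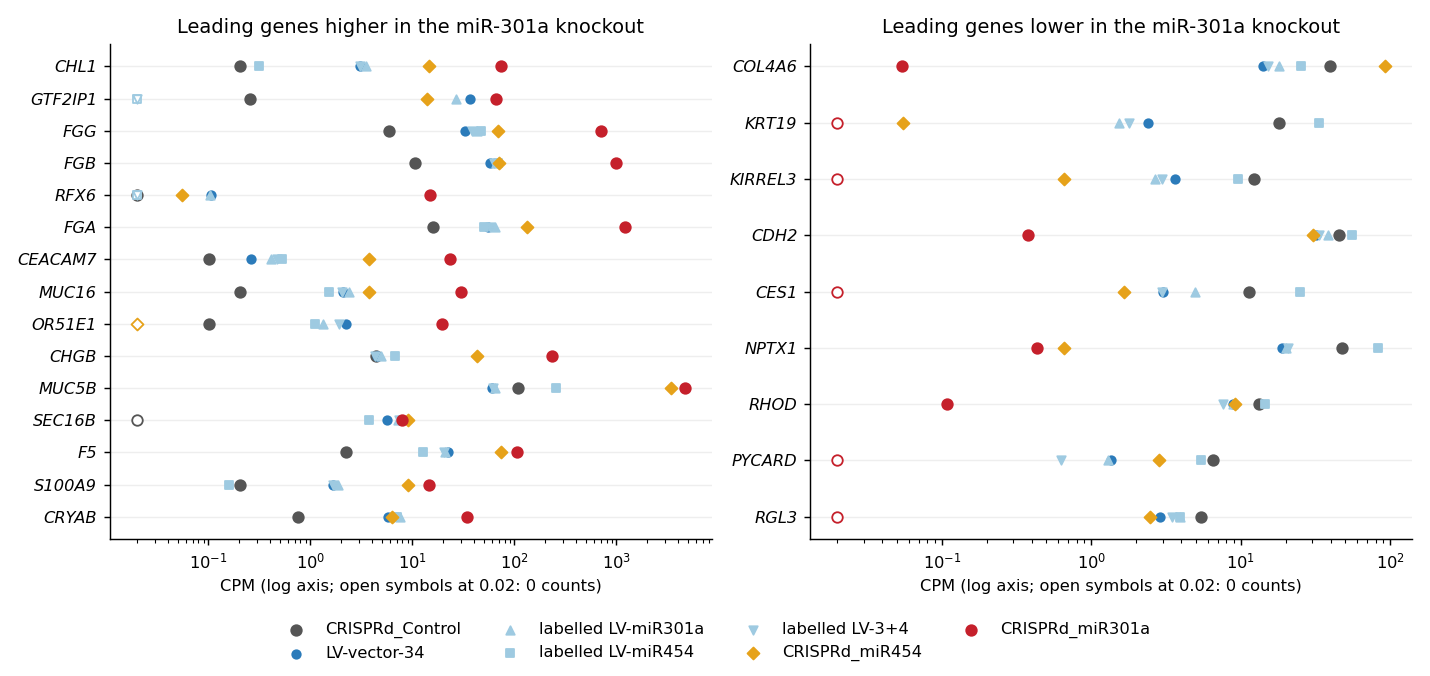
CPM on a log axis of the leading genes called higher (left) and lower (right) in the miR-301a knockout, 1 point per library, with 0 counts drawn as open symbols at the left edge. The knockout (red) stands to the right of both controls for FGA, FGB and FGG and to the left of all other libraries for CDH2 and COL4A6, while for SEC16B only CRISPRd_Control stands apart.

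Fibrinogen, the clotting protein made of 3 chains and usually a liver product, was among the largest differences of abundant genes in the knockout. FGA, the alpha chain, was at 15.8 CPM in CRISPRd_Control, 55.7 in LV-vector-34, 132 in CRISPRd_miR454 and 1222 in the miR-301a knockout. FGB, the beta chain, was at 10.5, 57.3, 70.6 and 996 CPM in the same order, and FGG, the gamma chain, at 5.94, 33.1, 69.0 and 700. The 3 genes are neighbours on chromosome 4 (FGB chr4:154562956-154571086, FGA chr4:154583126-154590766, FGG chr4:154604134-154612967). The fold over CRISPRd_Control was 77.4 (69.2 to 86.9) for FGA, 95.3 (83.0 to 110) for FGB and 118 (98.3 to 143) for FGG. Over LV-vector-34 it was 21.9, 17.4 and 21.1. All 3 chains were thus above every other library, and CRISPRd_Control was the lowest of the 7 for each, so the choice of control sets the size of the fold but not its direction.

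The clotting list as a whole, 19 measured genes, had 11 called higher and 3 lower, with a median log2 ratio of 1.62 against -0.01 for all measured genes. Over LV-vector-34 it had 4 higher and 2 lower and a median of 0.58. F5, which encodes factor V, was at 2.23 CPM in CRISPRd_Control, 105 in the knockout, 22.2 in LV-vector-34 and 73.4 in CRISPRd_miR454. Beyond fibrinogen and F5, every gene of the list called higher was called only against CRISPRd_Control, and 4 of them are given here. SERPINA1, the alpha-1 antitrypsin gene, was at 0.507, 6.10 and 3.51 CPM in CRISPRd_Control, the knockout and LV-vector-34, and F13B, a subunit of factor XIII, at 0.203, 3.62 and 3.35. TFPI2, an inhibitor of clotting proteases, was at 140, 702 and 404 CPM, and PROS1, which encodes protein S, at 25.4, 82.7 and 53.1. Among the lower members, THBD encodes thrombomodulin (16.1, 5.02 and 6.71 CPM) and PLAT tissue plasminogen activator (4.36, 0.918 and 1.52 CPM). Neither was called against LV-vector-34.

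Complement, the blood-borne defence cascade, had the highest median of the lists with more than 3 measured genes. Of 19 measured genes 12 were called higher and 0 lower, with a median log2 ratio of 1.76. Over LV-vector-34 the counts were 9 higher and 0 lower of 20, with a median of 0.69. CFI, the protease that inactivates C3b, was at 1.67 CPM in CRISPRd_Control, 4.67 in LV-vector-34 and 56.4 in the knockout, 33.7-fold (23.8 to 49.2) above the first and 12.1-fold (9.73 to 15.2) above the second. CFB, which supplies the catalytic part of the alternative convertase, was at 11.2, 12.2 and 93.6 CPM. CFD, the protease that cleaves factor B, was at 37.1, 34.5 and 242. VTN, which encodes vitronectin, was at 17.3, 25 and 135. The higher genes thus included activators and inhibitors. The 7 measured members not called had log2 ratios from -0.60 to 0.85, with the membrane inhibitor CD59 at -0.17. Other membrane inhibitors, CD55 (83.5, 130 and 373 CPM) and CD46 (135, 161 and 459 CPM), were called higher against both controls, as was C3 (132, 75.7 and 294 CPM). C4A and C4B were called higher too, but they are near-identical copies whose reads the counting can split, so their values are uncertain. In CRISPRd_miR454, 13 of 19 members were called higher against the shared CRISPRd_Control, where 6.61% of all 14990 measured genes were higher and 3.1% lower.

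The list of mucins, the gel-forming or membrane-bound glycoproteins of mucosal surfaces, also held trefoil peptides and other mucous cell genes, and had 7 higher and 2 lower of 12 measured with a median of 1.58. Against LV-vector-34 the counts were 6 and 2 and the median 1.31. Of the 8 mucins among the 12, 4 were higher and 2 lower, and 3 and 2 against LV-vector-34. MUC5B, the main gel mucin of airway glands, was at 108 CPM in CRISPRd_Control, 60.6 in LV-vector-34, 3454 in CRISPRd_miR454 and 4670 in the miR-301a knockout. That is 43.4-fold (41.6 to 45.4) above CRISPRd_Control and 77.0-fold (72.7 to 81.7) above LV-vector-34. The next library without a knockout was that labelled LV-miR454, at 256 CPM. MUC16, the membrane mucin that carries the CA125 antigen, was at 0.203, 2.10, 3.79 and 29.8 CPM in that order, and MUC13 at 8.98, 8.54, 72.5 and 37.0. AGR2, needed for mucin folding, was at 58.3, 83.9, 203 and 281 CPM. SPDEF, a transcription factor of goblet cells, was at 4.67, 3.72, 19.7 and 20.9 CPM. MUC5AC, the other gel mucin of airways, did not follow MUC5B: it was at 46.5 CPM in CRISPRd_Control, 206 in LV-vector-34, 481 in CRISPRd_miR454 and 112 in the miR-301a knockout. It was called higher with the first control and lay below the second. The lower members were MUC3A (9.13, 12.1, 6.16 and 3.67 CPM) and MUC12 (1.78, 1.10, 0.550 and 0.108 CPM).

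Genes of liver and gut epithelium had 11 higher and 1 lower of 21 measured, with a median of 1.11, and 7 and 3 of 20 with a median of 0.71 against LV-vector-34. TM4SF4, a tetraspanin-like protein of liver and gut, was at 47.7 CPM in CRISPRd_Control, 213 in LV-vector-34 and 629 in the knockout. APOH, a plasma apolipoprotein, was at 9.90, 16.5 and 75.0 CPM, and CDH17, the liver-intestine cadherin, at 13.9, 20.2 and 102. VIL1, the villin of brush borders, was at 1.27, 6.45 and 11.5 CPM and was called only against CRISPRd_Control. APOE, a lipid carrier, was the lower member, at 4.31, 11.4 and 1.62 CPM. Among lineage factors, FOXA1, a pioneer factor of endoderm, was at 16.6 CPM in CRISPRd_Control, 20.9 in LV-vector-34 and 47.0 in the knockout, KLF5 at 62.9, 76.1 and 161, and CDX2, a factor of intestine, at 2.08, 2.41 and 0.594. That list had 3 higher and 1 lower of 19, and 5 and 3 against LV-vector-34. HOX genes, which set position along the body axis, had 1 higher and 4 lower of 26, led by HOXD11 with 35 counts in CRISPRd_Control, 32 in LV-vector-34 and 0 in the knockout. HOXB9 was at 27.0, 31.4 and 10.6 CPM.

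Several leading genes stand outside these groups. CHGB, a granin of secretory granules, was at 4.41 CPM in CRISPRd_Control, 4.46 in LV-vector-34, 42.8 in CRISPRd_miR454 and 235 in the miR-301a knockout, 53.2-fold (43.1 to 66.6) above its control. RFX6, a transcription factor of pancreatic endocrine cells, had 0 counts in CRISPRd_Control, 2 in LV-vector-34 and 274 in the knockout, which is at least 97.2-fold above CRISPRd_Control at 3 counts in that library. CHL1, a neural cell adhesion molecule, was at 0.203 CPM in CRISPRd_Control, 3.09 in LV-vector-34 and 74.3 in the knockout, and OR51E1, an olfactory-type receptor, at 0.101, 2.25 and 19.3. In CRISPRd_miR454 RFX6 was at 0.0550 CPM and OR51E1 at 0. S100A9, a calcium-binding protein of inflamed epithelium and myeloid cells, was at 0.203, 1.68 and 14.5 CPM, and CRYAB, a small heat shock protein, at 0.761, 5.71 and 34.6. Both remaining leaders were called only against CRISPRd_Control: SEC16B had 0 counts there, 108 in LV-vector-34 and 146 in the knockout. GTF2IP1 had 5, 701 and 1225, but also 0 in the libraries labelled LV-miR454 and LV-3+4. GTF2IP1 is a pseudogene with near-identical copies, and its counts are uncertain. Ahead of all in the gap to the 5 libraries without a knockout was CHGB, whose highest value among those was 6.77 CPM.

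On the lower side, chromosome Y filled 6 of the 15 leading places, the highest among them, and its genes are given here as counts only. All 13 of its measured genes were called lower in the knockout, 10 of 10 measured against LV-vector-34, and 13 in CRISPRd_miR454. The 2 controls also differed in 5 of them. Whether such a difference between lines touches other results was not tested. The leading genes of other chromosomes included a collagen of basement membrane (COL4A6), a keratin and cadherin 2. CDH2, the N-cadherin of mesenchymal cells, was at 45.8 CPM (903 counts) in CRISPRd_Control, 32.0 in LV-vector-34, 30.3 in CRISPRd_miR454 and 0.378 (7 counts) in the miR-301a knockout. It was 121-fold (58.6 to 302) lower than CRISPRd_Control and 84.6-fold (40.8 to 211) lower than LV-vector-34. KRT19, a keratin of simple epithelia, had 355 counts in CRISPRd_Control, 46 in LV-vector-34 and 0 in the knockout, at least 111-fold lower at 3 counts in the knockout library. CRISPRd_miR454 also had almost none, at 0.0550 CPM. NPTX1, neuronal pentraxin 1, was at 47.5, 18.9 and 0.432 CPM in CRISPRd_Control, LV-vector-34 and the knockout, and at 0.660 in CRISPRd_miR454. RHOD, a small GTPase of endosomes, had 262, 169 and 2 counts, and KIRREL3, an adhesion protein of the immunoglobulin type, 243, 69 and 0. CES1, a carboxylesterase of the liver, had 225, 58 and 0 counts, and PYCARD, the adaptor of inflammasomes, 129, 26 and 0. RGL3, an exchange factor for Ral, had 107, 55 and 0. CDH2 and RHOD were not called in CRISPRd_miR454, where the log2 ratio to the same control was -0.59 and -0.51.

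**Figure D2:**
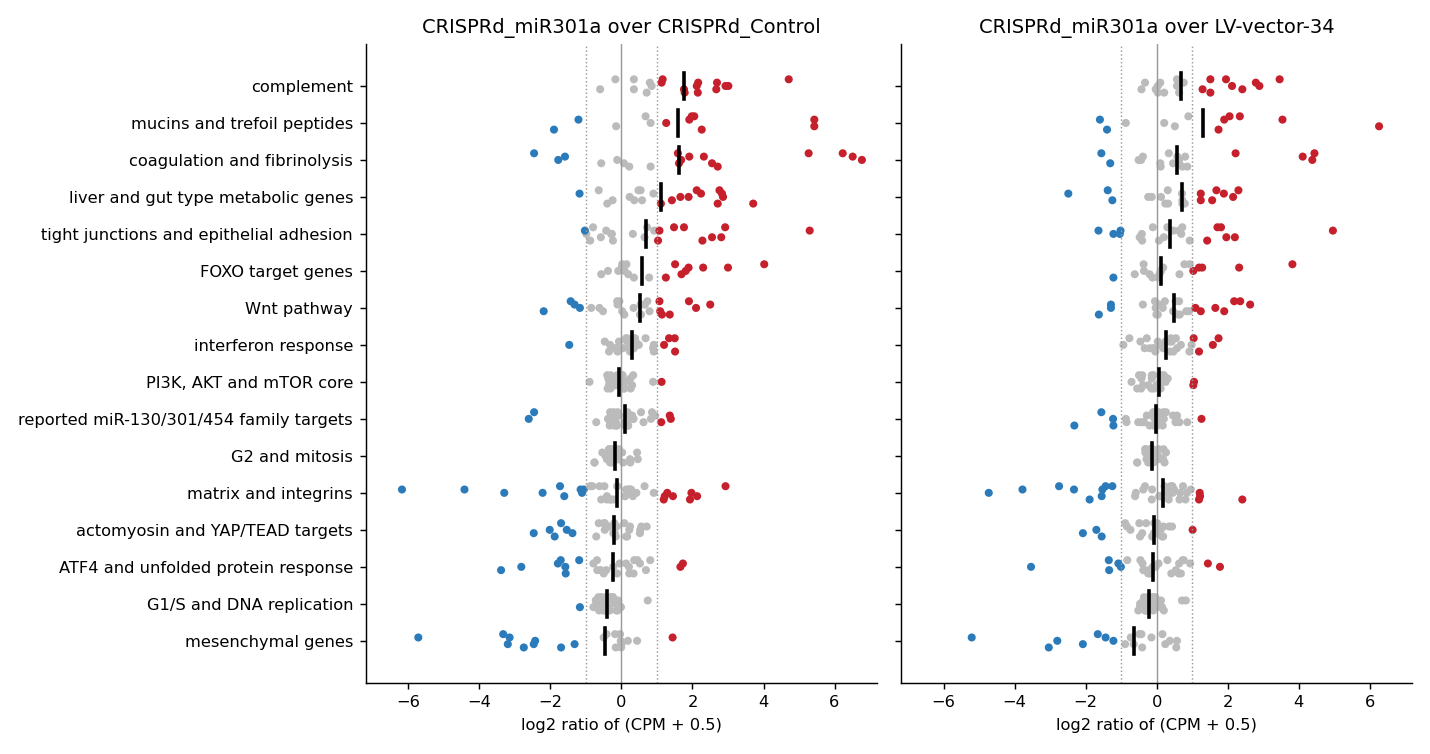
Log2 ratio of every measured member of 16 gene lists, with CRISPRd_Control (left) or LV-vector-34 (right) as the control; red and blue points were called higher and lower, black bars are medians and dotted lines mark 2-fold. Complement has no member called lower on either side, and the mesenchymal list has 9 of 20 members called lower on the left side and 7 of 19 on the right.

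Genes of the mesenchymal state had 1 higher and 9 lower of 20 measured, with a median log2 ratio of -0.46, and 0 and 7 of 19 with a median of -0.65 against LV-vector-34. ZEB2, a repressor of epithelial genes, was at 5.79 CPM in CRISPRd_Control, 7.18 in LV-vector-34 and 0.432 in the knockout, 13.4-fold (6.57 to 31.8) and 16.6-fold (8.20 to 39.3) lower. FOXC2, a forkhead factor of mesenchyme, was at 3.65, 4.87 and 0.270 CPM, and the contractile protein gene TAGLN at 38.8, 29.5 and 6.59. SPARC, a matricellular protein, had 111, 27 and 2 counts, and MMP2, a gelatinase, 229, 61 and 16. THY1, a surface glycoprotein of fibroblasts, had 81, 10 and 0. For these 6 genes the knockout had the lowest value of the 3. The only member called higher was CDH11, with 0.101 CPM in CRISPRd_Control, 1.13 in the knockout and 2.20 in LV-vector-34. It was thus called higher with the first control and lay below the second. Members not called against CRISPRd_Control had log2 ratios from -0.50 (TWIST2) to 0.44 (NT5E). Among them were VIM (-0.42), ZEB1 (0.00) and FN1 (0.18), so not all mesenchymal genes were lower. In the list of contractile and YAP/TEAD genes, 0 were higher and 6 lower of 26 (1 and 3 of 25 against LV-vector-34), with TPM1, a tropomyosin, at 633, 505 and 172 CPM in CRISPRd_Control, LV-vector-34 and the knockout.

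Epithelial adhesion and tight junction genes had 9 higher and 1 lower of 22, with a median of 0.68, and 6 and 4 of 22 with a median of 0.38 against LV-vector-34. CDH1, the E-cadherin, was at 60.4 CPM in CRISPRd_Control, 103 in LV-vector-34, 199 in CRISPRd_miR454 and 170 in the miR-301a knockout, and was called only against the first. CLDN2, a pore-forming claudin, was at 94.1, 142, 1327 and 555 CPM in that order. The carcinoembryonic antigen genes of the list were higher together: CEACAM7 had 2, 5, 68 and 431 counts, CEACAM6 was at 19, 44.7, 35 and 147 CPM, CEACAM1 at 1.78, 2.99, 16.8 and 15.5, and CEACAM5 at 2.69, 5.29, 1.92 and 15. All 4 were called against both controls. These genes are paralogs, so reads shared among them may be split by the counting. GRHL1, an epithelial transcription factor, was the lower member (3.50, 3.46, 2.53 and 1.46 CPM). EPCAM, an epithelial adhesion gene among the A549 markers, was at 3.3, 8.28, 2.75 and 2.32 CPM. It was called lower against LV-vector-34 and not called against CRISPRd_Control. Keratins and cornified envelope genes had 4 higher and 1 lower of 13, with a median of -0.21 (0.48 against LV-vector-34, with 2 higher and 1 lower). KRT18, a keratin of simple epithelia, was at 3017 CPM in CRISPRd_Control, 4177 in LV-vector-34 and 6436 in the knockout, and was called only against CRISPRd_Control.

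**Figure D3:**
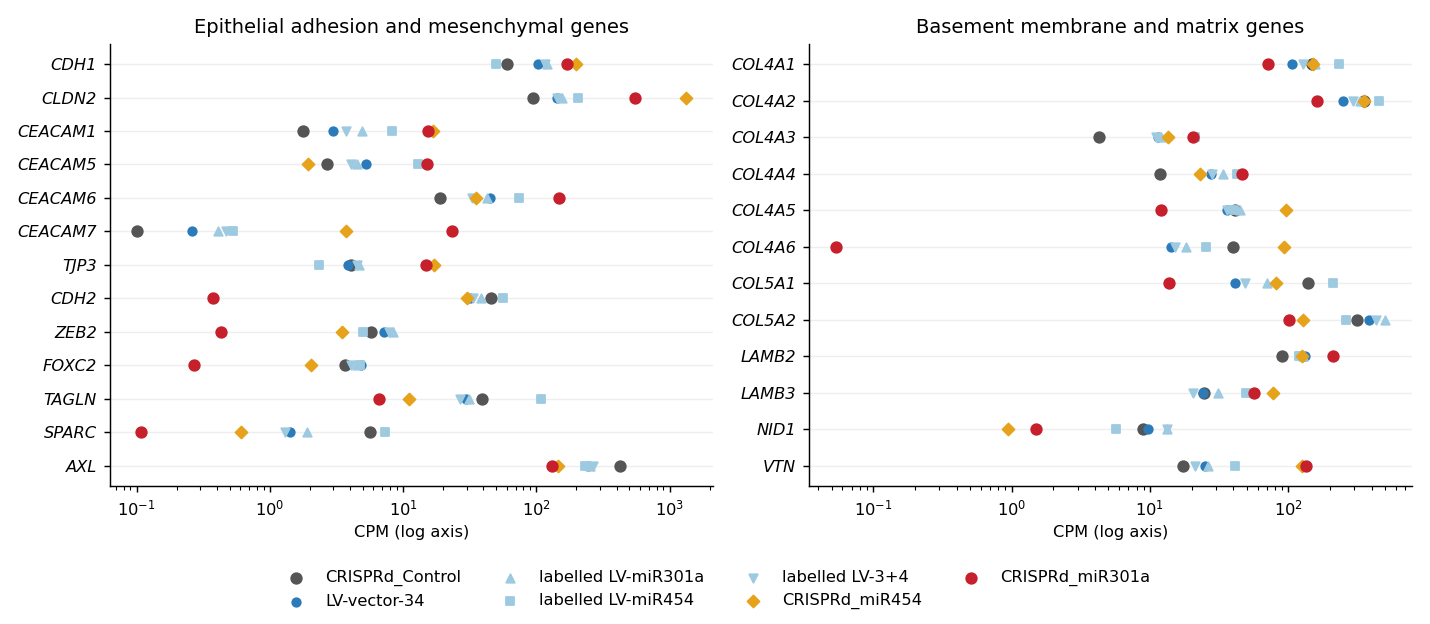
CPM on a log axis of epithelial adhesion and mesenchymal genes (left) and of basement membrane and matrix genes (right), 1 point per library. The miR-301a knockout (red) is the lowest of the 7 libraries for CDH2, ZEB2, FOXC2, COL4A5 and COL4A6, and CRISPRd_miR454 (orange) is the highest for COL4A5 and COL4A6.

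Matrix genes differed in both directions, with 8 higher and 9 lower of 39 measured and a median of -0.12 (0.18 against LV-vector-34). The type IV collagens, the sheet-forming collagens of basement membrane, come as neighbouring gene pairs, and the pairs parted. COL4A6 had 784 counts in CRISPRd_Control, 270 in LV-vector-34 and 1 in the knockout, a ratio of 737 (132 to 29145) between control and knockout. Its neighbour on the X chromosome COL4A5 was at 41.2, 35.8 and 12 CPM, 3.42-fold (2.95 to 3.99) lower. COL4A1 (149, 107 and 71.0 CPM) and COL4A2 (350, 247 and 161 CPM) were called lower against CRISPRd_Control only. COL4A3 (4.31, 11.5 and 20.5 CPM) and COL4A4 (11.8, 27.7 and 46.6 CPM) were called higher against CRISPRd_Control only. The fibrillar collagens COL5A1 (138, 41.0 and 13.7 CPM) and COL5A2 (313, 380 and 102 CPM) were lower against both. LAMB3, a laminin beta chain, was at 24.5, 24.0 and 56.5 CPM and was called higher against both. NID1, which links laminin to collagen IV, was at 8.88, 9.64 and 1.51 CPM. ITGB6, an integrin subunit that activates latent TGF-beta, was at 3.25, 4.09 and 1.19.

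The study's question concerns PI3K-AKT signalling, in which the kinase AKT restrains FOXO transcription factors. The core of the pathway, 29 measured genes of PI3K, AKT and mTOR, had 1 called higher and 0 lower, with a median of -0.06 (0.05 against LV-vector-34). That gene was SGK1, a kinase related to AKT, at 20 CPM in CRISPRd_Control, 44.5 in the knockout and 41.0 in LV-vector-34. The brakes of the pathway had 1 higher and 0 lower of 18: SESN3, a stress-induced inhibitor of mTOR complex 1, at 2.08, 12.2 and 5.08 CPM. Against LV-vector-34, 2 of 20 were higher and 2 lower. These were SESN3 (log2 1.19) and INPP4B (1.11), and on the lower side INPP5D (-1.34) and PIK3IP1 (-1.22), which were too low to be measured against CRISPRd_Control. Genes known as FOXO targets had 8 higher and 0 lower of 18, with a median of 0.56, and 5 higher and 1 lower of 19 with a median of 0.12 against LV-vector-34. PDK4, a kinase that restrains pyruvate use, was at 140 CPM in CRISPRd_Control, 1119 in the knockout, 224 in LV-vector-34 and 1679 in CRISPRd_miR454. TXNIP, an inhibitor of thioredoxin and of glucose uptake, had 5, 217, 7 and 341 counts in that order. CDKN1B, the cell cycle inhibitor p27, was at 36.1, 135, 55.2 and 109 CPM and BCL6, a repressor, at 7.16, 26.3, 12.7 and 26.9. All 4 were called higher than both controls in the miR-301a knockout. In CRISPRd_miR454 they were called higher than CRISPRd_Control, and all but CDKN1B also higher than LV-vector-34. IRS2, an adaptor of the insulin receptor, was at 57.2, 164, 95.6 and 101 CPM, and was called only in the miR-301a knockout and only against CRISPRd_Control. These messages say nothing direct of AKT phosphorylation, which was not measured.

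Receptors and growth factors that feed this pathway had 6 higher and 3 lower of 31. ERBB3, a receptor rich in PI3K docking sites, was at 11.1 CPM in CRISPRd_Control, 30.5 in LV-vector-34 and 67.5 in the knockout. FGFR2, a fibroblast growth factor receptor, was at 5.33, 2.57 and 21.8 CPM. PDGFC, a ligand of platelet-derived growth factor receptors, was at 3.10, 0.891 and 9.29. On the lower side NRG1, the ligand of ERBB3, was at 187, 135 and 45.2 CPM, so receptor and ligand differed in direction. PDGFB, another ligand of that kind, had 195, 108 and 22 counts. AXL, a receptor kinase linked to the mesenchymal state, was at 428, 244 and 132 CPM and was called only against CRISPRd_Control.

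Cell cycle genes differed by less than the rule asks. Of 33 measured genes of G1/S and DNA replication, 32 lay below 0 and 1 was called lower, with a median of -0.42. It was UHRF1, a cofactor of DNA methylation, at 81.1 CPM in CRISPRd_Control, 35.7 in the knockout and 49.7 in LV-vector-34. Against LV-vector-34, 26 of 33 lay below 0, none of the 33 was called and the median was -0.22. In G2 and mitosis, 0 of 32 were called, with a median of -0.19, and in the kinetochore list 0 of 26, with a median of -0.14. Cytosolic ribosomal protein genes had 0 of 30 called and a median of 0.04 (-0.25 against LV-vector-34). The 22 measured neighbours of the unit on 17q22 had 0 called and a median of -0.14, and 1 called higher against LV-vector-34.

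Wnt pathway genes had 7 higher and 4 lower of 27, with a median of 0.52, and 7 and 3 of 26 with a median of 0.49 against LV-vector-34. The higher ones included genes known as feedback targets of the pathway, but not all such genes were called. AXIN2, another of them, had log2 ratios of 0.79 to CRISPRd_Control, not called, and 1.65 to LV-vector-34. NKD1, an inhibitor of Dishevelled, was at 11 CPM in CRISPRd_Control, 7.50 in LV-vector-34 and 49.0 in the knockout. RNF43 (42.3, 42.2 and 90.5 CPM) and ZNRF3 (48.3, 44.9 and 107 CPM) encode ligases that remove Wnt receptors. LGR5, a receptor for R-spondin, had 0, 1 and 43 counts, and SP5, a transcription factor, was at 0.304, 0.0524 and 1.57 CPM. The ligand gene WNT4 was at 1.57, 1.21 and 7.23. All 6 were above both controls by the rule. They were not particular to this knockout. In CRISPRd_miR454 NKD1 was at 50.7 CPM, RNF43 at 151, ZNRF3 at 96.5, SP5 at 5.5 and WNT4 at 4.23, and LGR5 had 54 counts. NOTUM, also known as a feedback target, encodes a secreted enzyme that inactivates Wnt ligands. It was lower at 3.76, 1.78 and 0.432 CPM, as was the ligand gene WNT11 at 1.57, 1.89 and 0.270.

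In the TGF-beta list, 2 were higher and 2 lower of 35, with a median of 0.10 (-0.02 against LV-vector-34). BMP4, a ligand, was at 21.9 CPM in CRISPRd_Control, 17.4 in LV-vector-34 and 61.9 in the knockout, and BMP2, another, at 1.62, 0.786 and 7.67. GREM1, a secreted antagonist of both ligands, had 56, 36 and 2 counts. The ligands were thus higher and their antagonist lower than in both controls.

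Stress and inflammation lists gave smaller groups. In the ATF4 and unfolded protein list, 2 were higher and 7 lower of 27, and 2 and 5 against LV-vector-34. ASNS, which makes asparagine, was at 132 CPM in CRISPRd_Control, 103 in LV-vector-34 and 40.1 in the knockout, PSAT1, of serine synthesis, at 247, 151 and 70.9, and PHGDH, of the same route, at 124, 83.7 and 41.3. NUPR1, a stress-induced chromatin protein, was at 9.49, 16.0 and 0.918 CPM and STC2, a secreted glycoprotein, at 102, 24.2 and 9.29. The higher members were of the unfolded protein side: XBP1, its transcription factor, at 75.8, 69.5 and 240 CPM and DNAJB9, a chaperone of the endoplasmic reticulum, at 7.36, 9.07 and 25.5. These 7 genes were called against both controls. Interferon-response genes had 4 higher and 1 lower of 29, led by IFI6 (4.62, 5.87 and 14 CPM). Of the NF-kB list 1 was higher and 5 lower of 23, with a median of -0.48, while against LV-vector-34 it was 1 and 1 of 22 with a median of 0.05. The higher gene was PTGS2, the inducible cyclooxygenase, at 64.8, 97.7 and 415 CPM, and the gene lower against both was ICAM1, an adhesion molecule, at 13, 6.81 and 2.05. HLA-DMB and HLA-DMA, which load peptides on HLA class II, were at 7, 17 and 69.6 CPM and at 2.84, 6.76 and 15.5. Immediate early genes had 8 higher and 2 lower of 26 with a median of 0.30, but 3 and 2 of 27 with a median of -0.06 against LV-vector-34. FOS was at 4.41 CPM in CRISPRd_Control, 39.8 in LV-vector-34 and 37.5 in the knockout, and EGR1 at 3.15, 25.3 and 11.2. For EGR1 the 2 controls gave opposite calls.

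Messages that miR-301a could act on directly were examined next. The perfect seed sites are TTGCACT in a 3′ UTR (7mer-m8), TTGCACTA (8mer) and TGCACTA (7mer-A1), searched on the sense strand of the longest 3′ UTR of each coding gene in GENCODE release 29. Of 18765 coding genes with a 3′ UTR, 17.5% held a 7mer or 8mer site and 2.82% an 8mer. The question was whether genes with a site differed from those without. The 2608 measured genes with a site had a median log2 ratio of 0.005, and the 10322 without one had -0.033. Of those with a site 5.64% were called higher and 3.53% lower, and of those without 6.56% and 4.31%. The 429 genes with an 8mer had a median of 0.053 and 4.66% called higher. Genes with a site had longer 3′ UTRs, with a median of 3006 against 1101 bases. Among genes in the longest of 3 classes of 3′ UTR length, the medians were 0.020 for 1701 genes with a site and 0.004 for 2609 without. That gap of 0.016 was smaller than the gap of 10 of the 11 other seed families searched in the same way, which ran from -0.012 for miR-29 to 0.094 for miR-30. A match of letters does not show that a site is used.

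**Figure D4:**
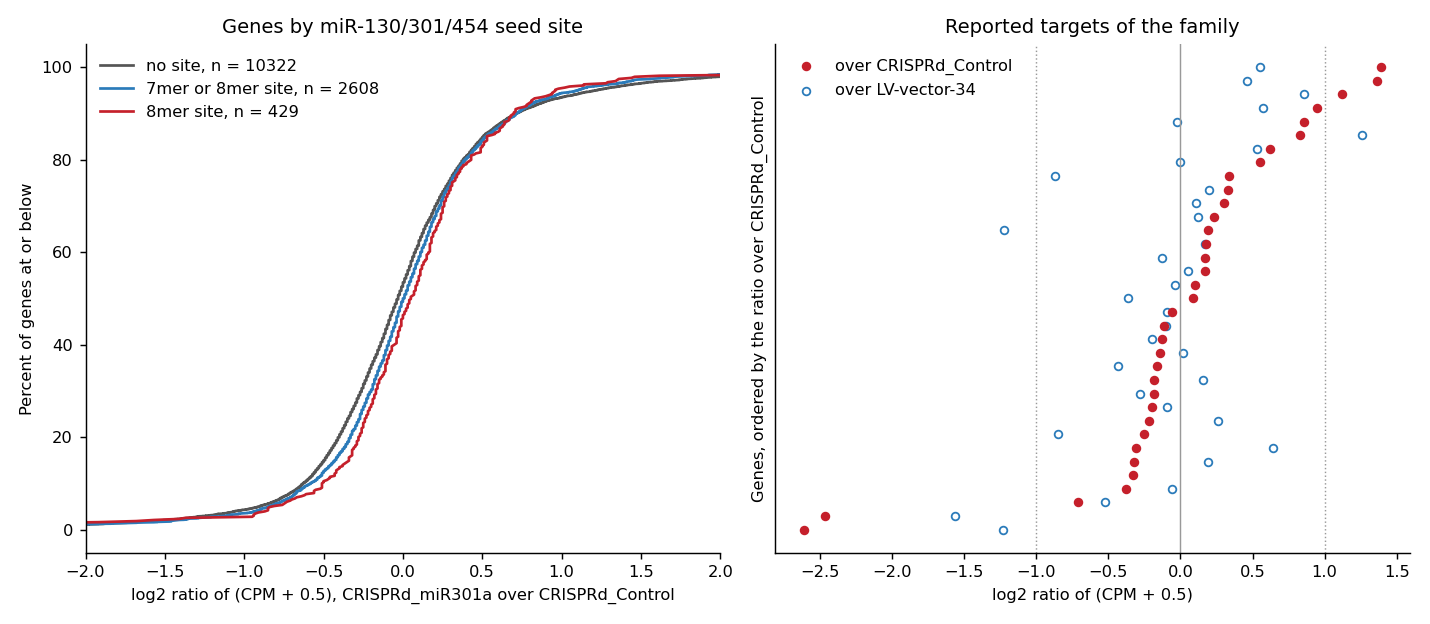
Left, percent of measured coding genes at or below each log2 ratio of the knockout over CRISPRd_Control, by seed site in the 3′ UTR (429 genes have an 8mer). Right, log2 ratios, in order, of 35 measured genes reported as targets of the family, against CRISPRd_Control (red) and LV-vector-34 (open); the curves run close together, and most targets lie between the dotted 2-fold lines.

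Of 40 genes listed as reported targets of the family, 35 were measured, and 3 were called higher and 2 lower, with a median of 0.09. Over all measured genes 6.74% were higher and 4.15% lower, so counts this small do not set the targets apart. Against LV-vector-34, 1 was higher and 4 were lower, with a median of -0.02. BTG1, an antiproliferative cofactor, was at 83.7 CPM in CRISPRd_Control, 215 in the knockout and 156 in LV-vector-34. NDRG2, of a stress-response family, was at 7.71, 21.1 and 14.3 CPM. Neither of these was called against LV-vector-34. TGFBR2, the type II receptor for TGF-beta, was at 117, 209 and 87.0 CPM, called only against LV-vector-34. ABCA1, the cholesterol exporter, was lower against both controls, at 16.4, 2.27 and 5.98 CPM. Sites of BTG1 and ABCA1 are shown as examples of the matches searched for, since the 2 genes differed in direction. Whether these sites are used was not tested. They are given on the sense strand of GRCh38 with the match in capitals. The BTG1 match is at chr12:92143709-92143716 and the ABCA1 match at chr9:104781198-104781204, both in the 3′ UTR on the minus strand.

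BTG1: gcaggggaatTTGCACTAttacac
ABCA1: ggatctatttTTGCACTggaatat

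Both carry the core TTGCACT, and the log2 ratio was 1.36 for BTG1 and -2.61 for ABCA1. Among all genes called against both controls, those with a site were led on the higher side by NTS. On the lower side a chromosome Y gene ranked above NPTX1, which is described above and led the rest. NTS, the neuropeptide neurotensin, was at 129 CPM in CRISPRd_Control, 2970 in the knockout and 945 in LV-vector-34. PPARGC1A, a coactivator of mitochondrial genes with 2 8mer sites, was at 2.03, 32.3 and 6.24 CPM. SLC7A2, a transporter of basic amino acids, was at 11.7, 148 and 18.7, and SLC2A3, a glucose transporter, at 36.0, 417 and 201. On the lower side SPOCK1, a matrix proteoglycan with an 8mer, had 210, 9 and 142 counts in the same order, and ZEB2 and GREM1 also hold a site. These genes were picked for holding a site, so they cannot show whether sites are more common among large differences. The shares called higher and lower, given above, were smaller for genes with a site than for genes without.

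The overexpression line was set beside the knockout. In the library labelled LV-miR301a against LV-vector-34, 54 genes (0.366%) were called higher and 55 (0.373%) lower of 14757. Of the 1014 higher knockout genes, 808 were measured in that pair too, and 10 were called lower there while 8 were called higher. Of the lower knockout genes 565 were measured in both, with 5 called higher and 9 lower there. The 10 and 5 include C4A, SULT1A4, SERF1A and ATP5MF-PTCD1, which are near-identical copies or readthrough loci and uncertain. The 808 genes had a median log2 ratio of 0.12 in the library labelled LV-miR301a and the 565 lower ones 0.07, against 0.00 for all 14416 measured in both. FGA, FGB and FGG were at 64.9, 66.3 and 42.9 CPM there, beside 55.7, 57.3 and 33.1 in the vector. CDH2 was at 38.2 beside 32.0. Its MIR301A reads, 29 beside 0 in the vector, go with its label, and its 28 MIR454 reads do not.

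The knockout of the neighbouring miR-454 shares its control with this one, so the ratios are not independent, and the values are set side by side. CRISPRd_miR301a compared directly with CRISPRd_miR454 had 414 genes higher (2.76%) and 546 lower (3.65%) of 14975. In that direct comparison the log2 ratio was 3.21 for FGA, 2.44 for CHGB, 4.78 for RFX6, -5.13 for CDH2 and -7.39 for COL4A6, while MUC5B (0.44), F5 (0.52) and CFI (0.19) differed by less than 2-fold. Relative to CRISPRd_Control, most genes called higher in the miR-301a knockout were also called higher in CRISPRd_miR454. On the lower side a smaller share, but still many genes, were called lower in both. The shared control can add to such common calls and can make opposite calls rarer. In all, 17 genes were called in opposite directions in the 2 knockouts. Because of the shared control, neither the common nor the opposite calls measure how alike the knockouts are, which was not tested.

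The ratios also varied by chromosome, shown in the plot of chromosome medians. Chromosome 17, which carries the unit, had the lowest median, -0.272 over 880 measured genes, with 3.52% called higher and 5.8% lower. Against LV-vector-34 it was -0.237, and it was 0.048 between the 2 controls. CRISPRd_miR454 had a median of -0.293 there. Along chromosome 17 the 24 blocks of about 30 neighbouring genes had medians from -0.49 to -0.07, so the whole chromosome lay below 0 and the block around the unit (-0.07) was among the least low. Chromosome 9 stood at -0.199 (-0.114 against LV-vector-34), but not along its whole length. Its first 5 blocks had medians from 0.01 to 0.30, and its later blocks from -0.51 to -0.21. Chromosome 2 stood at -0.135 (-0.183), and CRISPRd_miR454 had a median of 0.023 there. Chromosome 4, which holds the fibrinogen genes, stood at 0.119 with 12.4% of 502 genes called higher. Chromosome 21 was at 0.043 here and 0.533 in CRISPRd_miR454. Copy number was not measured.

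**Figure D5:**
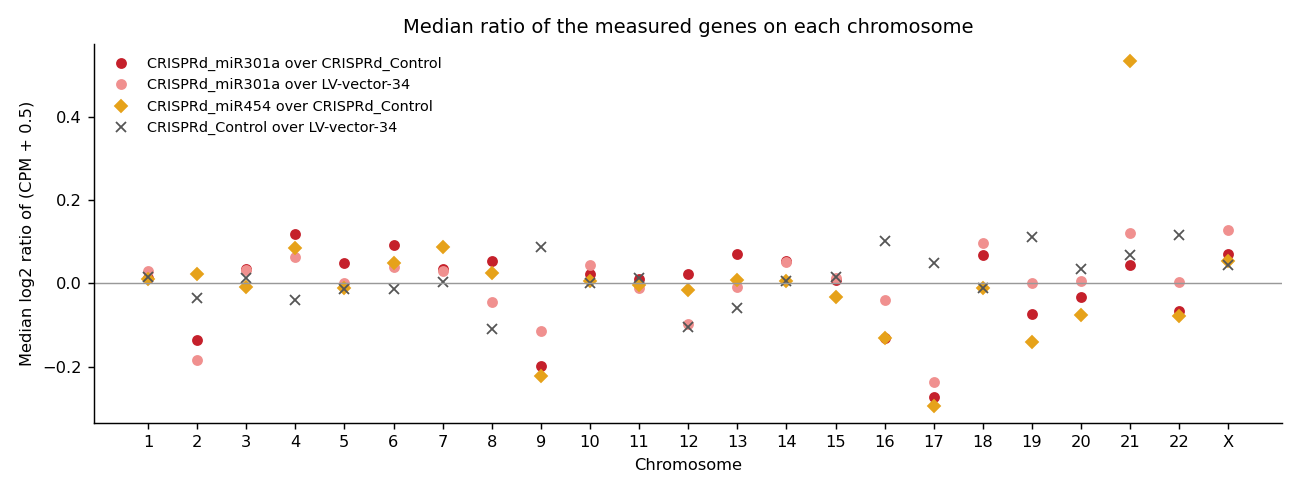
Median log2 ratio of the measured genes on each chromosome for the miR-301a knockout against CRISPRd_Control (red) and LV-vector-34 (pink), the miR-454 knockout against CRISPRd_Control (orange) and the controls against each other (crosses). Chromosome 17 is the lowest point of both knockouts, at -0.272 and -0.293, and chromosome 21 stands out only in CRISPRd_miR454.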

How the data were processed

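Poly(A) RNA of A549 cells grown in DMEM/F12 with serum was sequenced, 1 library per group. The values used are estimated counts per gene (expected counts) as the authors deposited them. The submitters' processing notes name Bowtie2 2.3.5.1, RSEM 1.3.3 and GRCh38.p13. Which annotation and strand option were set is not given in these sources. Reads of antisense or overlapping genes may therefore be mixed. The table has 44576 rows. The 4840 numbered copies of a symbol (2.02% of counts) were summed with it, giving 39710 genes, and counts were then rounded to whole numbers. Another 27 rows (0.171% of counts) carry date-like names and were left out before that sum, so the genes behind them are missing here. Library sizes were scaled by TMM over the 7 libraries of the table (edgeR 4.0.16, R 4.3.3), and CPM and log2((CPM + 0.5) ratios) were computed from them with Python 3.11.15, numpy 2.4.6, pandas 2.3.3 and scipy 1.17.1. Intervals are exact Clopper-Pearson intervals of the share of both libraries' counts.

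Leading genes were the 15 in each direction, at 5 CPM or more in either library, ranked by how far the near end of the counting interval lay from a ratio of 1. Per list, up to 6 called members each way were taken by the same bound, and up to 10 genes each way with a seed site called against both controls. Outside these rules, C3, CD46, CD55, CDH1, COL4A1, COL4A2, IRS2, ITGB6, LAMB3 and MUC5AC were chosen after their values were seen. The same holds for PROS1, RNF43, TFPI2, VIL1, TGFBR2, INPP4B, INPP5D, PIK3IP1, CD59 and AXIN2. VIM, ZEB1, FN1, TWIST2, NT5E and EPCAM were also chosen in that way. Some genes of the lists are not reported here by name. The members and lists were chosen with earlier results of these data known. Genes and 3′ UTRs were located with GENCODE release 29 on GRCh38. Alternatives tried were total counts, the size factors of DESeq2 1.42.0, a pseudocount of 2, no filter, a filter at 5 CPM, copies kept apart and LV-vector-34 as the control. Mitochondrial messages have no rows under their usual symbols, and that list gave no value.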

Additional observations from a re-analysis of the deposited data

Results flagged for a closer look

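A few genes were called in opposite directions in the 2 knockouts against the shared CRISPRd_Control, and the difference was not tested, since each knockout is 1 library. COL4A6 had a log2 ratio of -6.18 in the miR-301a knockout and 1.21 in CRISPRd_miR454, and its neighbour COL4A5 had -1.73 and 1.20. Collagen IV of this pair was therefore the lowest of the 7 libraries in one knockout and the highest in the other. IL1A, which encodes the cytokine interleukin 1 alpha, had -1.60 and 1.52. PSMB8, a subunit of the immunoproteasome, had -2.14 and 1.13, and SLC16A3, a lactate exporter, had -1.53 and 1.22. SOX2, a transcription factor of airway and stem cells, had 1.31 and -1.42.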

How the results depend on the processing

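No paired analysis was possible because each group is 1 library. With a pseudocount of 2, the knockout had 636 genes higher and 376 lower, and 343 higher and 176 lower against both controls. At 5 CPM or more it had 662 and 376, with 179 lower against both. Of the genes beyond all 5 libraries without a knockout, 240 lay above and 121 below with a pseudocount of 2, and 149 below at 5 CPM or more. Genes higher in the knockout and lower in the library labelled LV-miR301a were 1 with a pseudocount of 2, 1 at 5 CPM or more and 34 with copies kept apart. The reverse held for 1, 0 and 31 genes, for 9 with no filter, and for 8 with the library labelled LV-3+4 in its place. The fewer calls at 5 CPM or more come from fewer genes tested, and for the rest the cause was not tested. Against LV-vector-34 the log2 ratio changed sign for C4A (-0.33), CDH11 (-0.73), EGR1 (-1.14), FOS (-0.09), MUC5AC (-0.87) and SERF1A (2.75). Scaling by total counts moved the median of all genes from -0.014 to -0.079 and gave 940 higher and 696 lower. The median of genes with a seed site minus that of genes without was 0.038, and 0.086 with 8mers only, 0.040 at 5 CPM or more and 0.009 against LV-vector-34. With 1 library a group, no alternative can show the spread between cultures, and genes below about 3 counts cannot be told from absent.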
